A study of Mus musculus with 6 samples.

Results

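The 39 Hox genes of the mouse, chosen as the protein-coding genes whose symbol is Hoxa, Hoxb, Hoxc or Hoxd followed by digits alone, are 39 of 21887 protein-coding genes annotated on the mm10 assembly. They lie in 4 clusters, each taken from the lower end of its first gene span to the upper end of its last and widened by 100 kb on either side. Within these widened clusters the 6 deposited ATAC-seq peak lists held 1312 distinct intervals of 1085290 in the whole series, and single lists placed between 195 and 279 intervals there. ATAC-seq cuts DNA with the transposase Tn5 where nucleosomes leave it exposed, so a peak marks accessible chromatin.

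The libraries came from live, GFP-positive (GFP+, DAPI-) urothelial cells sorted from the peeled urothelium, the epithelium that lines the urinary tract, of Stag2-WT and Stag2-KO mice. All animals had received tamoxifen (TMX) in their diet, and both groups were taken 1 week after TMX induction. There were 3 libraries of each genotype, labelled biological replicates 1 to 3 and all of batch 1, made from 50000 cells per condition. The sources used here do not name the driver of the induction, the Stag2 allele, the source of the GFP, the age of the mice or the number of animals per library. The p-values therefore speak of the spread from library to library, part of which may be technical. STAG2 belongs to cohesin, a ring-shaped complex that holds sister chromatids together and folds chromosomes into loops. At the Stag2 gene itself the best interval had ranks 20169, 11913 and 17473 in WT and 7120, 4989 and 14688 in KO. A peak at the end of the gene checks nothing about a deletion inside it, so these lists do not check the genotype labels.

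Hox genes encode homeodomain transcription factors that give cells of the embryo their position along the body axis. Within a cluster they lie in the order in which they are used, with low-numbered (anterior) genes at one end and high-numbered (posterior) genes at the other, and genes of the same number in different clusters form a paralog group. Polycomb complexes keep unused Hox genes compact, trithorax complexes keep used ones active, and cohesin with CTCF partitions the clusters into loops. The bladder epithelium derives from the hindgut end of the embryo, where posterior Hox genes are used, and Hoxa13 and Hoxd13 are required for the urogenital tract.

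Each list was ordered by the p-value the authors gave each peak, so that rank 1 is the strongest peak of its library. An interval among the best 50000 of a library is called open here, and an interval among the best 100000 carries its rank. Rank 50000 fell at a −log10 p of 49.76 in WT replicate 1, the lowest, and 114.1 in WT replicate 2, the highest. Rank 100000 fell at 12.39 and 25.25 in the same libraries. Closed therefore means without one of the strongest peaks, and such places can still hold accessible chromatin. A difference between genotypes is the mean over libraries of minus log2 rank in KO less that in WT, called the log2 rank gain: a gain of 1 means a rank that is better by a factor of 2 in KO. Because a bulk peak averages the sorted cells, a peak open in fewer cells and a peak weaker in each cell cannot be told apart.

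Promoter sequences are shown for members that span the range seen at Hox starts. RefSeq promoter entries (build GRCm38.p6, the patched mm10) existed for 22 of the 39 genes, in 24 entries. The 250 bases upstream of the start follow, 5′ to 3′ on the coding strand, with CG dinucleotides in capitals. Within 500 bp of these starts, Hoxd10 and Hoxd1 were open in all 6 libraries and Hoxa7 and Hoxd4 in none. Hoxa13 was open in 2 although it is the richest in CG.
Hoxd10 (chr2:74691641-74691890, + strand): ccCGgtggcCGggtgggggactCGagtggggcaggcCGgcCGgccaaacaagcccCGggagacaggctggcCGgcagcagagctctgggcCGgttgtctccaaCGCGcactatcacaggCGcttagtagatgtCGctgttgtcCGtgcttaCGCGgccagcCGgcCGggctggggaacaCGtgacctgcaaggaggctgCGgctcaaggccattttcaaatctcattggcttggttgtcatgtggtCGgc
Hoxd1 (chr2:74762730-74762979, + strand): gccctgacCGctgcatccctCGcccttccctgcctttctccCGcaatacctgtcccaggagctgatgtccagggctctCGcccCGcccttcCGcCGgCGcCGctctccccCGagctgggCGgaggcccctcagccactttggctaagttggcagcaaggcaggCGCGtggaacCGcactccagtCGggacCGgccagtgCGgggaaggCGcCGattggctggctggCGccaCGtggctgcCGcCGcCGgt
Hoxa13 (chr6:52260881-52261130, - strand): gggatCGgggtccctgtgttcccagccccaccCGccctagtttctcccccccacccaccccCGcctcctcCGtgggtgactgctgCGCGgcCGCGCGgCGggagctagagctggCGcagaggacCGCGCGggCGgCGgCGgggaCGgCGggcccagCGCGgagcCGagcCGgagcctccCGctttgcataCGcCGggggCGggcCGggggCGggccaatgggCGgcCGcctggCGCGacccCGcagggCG
Hoxa7 (chr6:52218574-52218823, - strand): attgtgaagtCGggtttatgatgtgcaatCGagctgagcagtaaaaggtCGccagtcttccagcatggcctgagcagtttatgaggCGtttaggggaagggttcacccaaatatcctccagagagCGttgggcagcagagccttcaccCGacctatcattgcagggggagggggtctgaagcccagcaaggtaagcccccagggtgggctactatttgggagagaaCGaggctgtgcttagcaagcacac
Hoxd4 (chr2:74721728-74721977, + strand): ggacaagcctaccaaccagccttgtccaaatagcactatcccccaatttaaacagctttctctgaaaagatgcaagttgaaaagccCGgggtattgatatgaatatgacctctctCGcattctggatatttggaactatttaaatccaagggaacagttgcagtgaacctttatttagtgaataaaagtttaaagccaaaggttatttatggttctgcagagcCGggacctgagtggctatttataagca

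Over the full 300-base entries (250 upstream, 50 downstream), the 6 Hox promoters open in all libraries had a median of 23.5 CG dinucleotides and 62.4% G+C, and the 10 open in none had 9.5 and 55.4%. Across all 21263 promoter entries of protein-coding genes the medians were 22.0 CG where open in all libraries and 3.0 where open in none. The Hox promoters open in none thus held more CG than closed promoters at large. Hoxa13 held 45 CG, Hoxd13 held 37 CG, and both were open in 2 of 6 libraries. Hoxa10 had 12 CG and was open in all 6. A TATA word (TATAAA, either strand) occurred in 4 of 24 Hox entries (16.7%) and in 12.6% of all entries. The Hoxd4 and Hoxb8 entries hold it, both open in no library, as do Hoxd13 and the inner start of Hoxa10. The core of the CTCF motif, CNAGGNGGC on either strand, was found at Hoxd10 and Hoxa13 (8.33% of Hox entries, 9.96% of all). TTTATNG, a word of the kind that posterior HOX proteins bind, was found at Hoxd4 and Hoxb8 (8.33% of Hox entries, 9.58% of all). These matches describe letters of the windows and say nothing of binding.

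Libraries did not group by genotype alone. By shared base pairs of the best 50000 intervals (Jaccard index), KO replicate 3 overlapped the WT libraries by 0.681 to 0.754 and the other KO libraries by 0.659 and 0.662, whereas KO replicates 1 and 2 overlapped each other by 0.775. Within the widened Hox clusters the split was wider, 0.655 to 0.718 against 0.555 and 0.501. WT replicate 2 in turn overlapped KO replicates 1 and 2 by 0.695 and 0.714, more than it did WT replicate 1 (0.676). Comparisons are therefore given with and without KO replicate 3. Because that library was picked from these same lists for its likeness to WT, leaving it out favours differences in advance. The p-values without it are descriptive only. Replicate numbers follow the sample titles; the library names in the labels skip a number in both groups, so that replicate 3 is named WT4 or KO4. The lists held 149153 to 260462 distinct intervals, and that of KO replicate 1, the longest, began at a −log10 p of 3.00, against 2.00 to 2.01 in the others. The read depth is unknown.

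Of 16 urothelial marker genes 8 were open at a gene end in all 6 libraries, where 45.0% of all protein-coding genes were. They included the uroplakin genes Upk1a, Upk1b, Upk2 and Upk3a, which encode the plaque proteins of the urothelial surface. Of the basal cell markers, Trp63 had no interval among the best 100000 in any library, Krt5 had ranks of 40053 to 75300 in 5 libraries and Krt14 had ranks of 60733 to 81263 in 4. Other urothelial markers also fell short of open in all 6 libraries. Gata3 was ranked in WT replicate 1 alone, at 97352. Krt20 ranked 47425 to 61753, Krt18 25894 to 73395, Foxa1 37533 to 55769 and Grhl3 22565 to 57389. No fibroblast (of 8), smooth muscle (of 6) or endothelial gene (of 6) was open in all libraries, and of 6 immune genes only Cd68 was, while Ptprc had no interval among the best 100000. Some of these genes were open in single libraries. Myh11 ranked 19555 and 18319 in WT replicates 1 and 3 and was unranked elsewhere. Col1a1 ranked 38220, 52143 and 36124 in WT and 70810, 68490 and 95250 in KO. Des went the other way, open in KO replicates 1 and 2 alone (45792 and 42857).

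Hoxa was the most open of the 4 clusters and Hoxc the least. The Hoxa cluster (chr6:52155367-52260880, 106 kb, 11 genes) had 7.62% of its length inside open intervals, as a mean over 6 libraries. Hoxd (chr2:74668225-74765142, 96.9 kb, 9 genes) had 6.76%, Hoxb (chr11:96194316-96368254, 174 kb, 10 genes) 3.75% and Hoxc (chr15:102921131-103036856, 116 kb, 9 genes) 1.99%. The median 100 kb tile of the genome had 0.206%, and the median tile with a protein-coding gene 0.951%. Only 0.239% of all tiles reached the Hoxa value and 0.581% the Hoxd value, against 7.26% for Hoxb. Among tiles with a protein-coding gene 30.7% reached the Hoxc value. The flanks of 100 kb were less open than the clusters they border, with 1.57% at Hoxa, 2.58% at Hoxb, 0.788% at Hoxc and 1.28% at Hoxd.

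**Figure D1:**
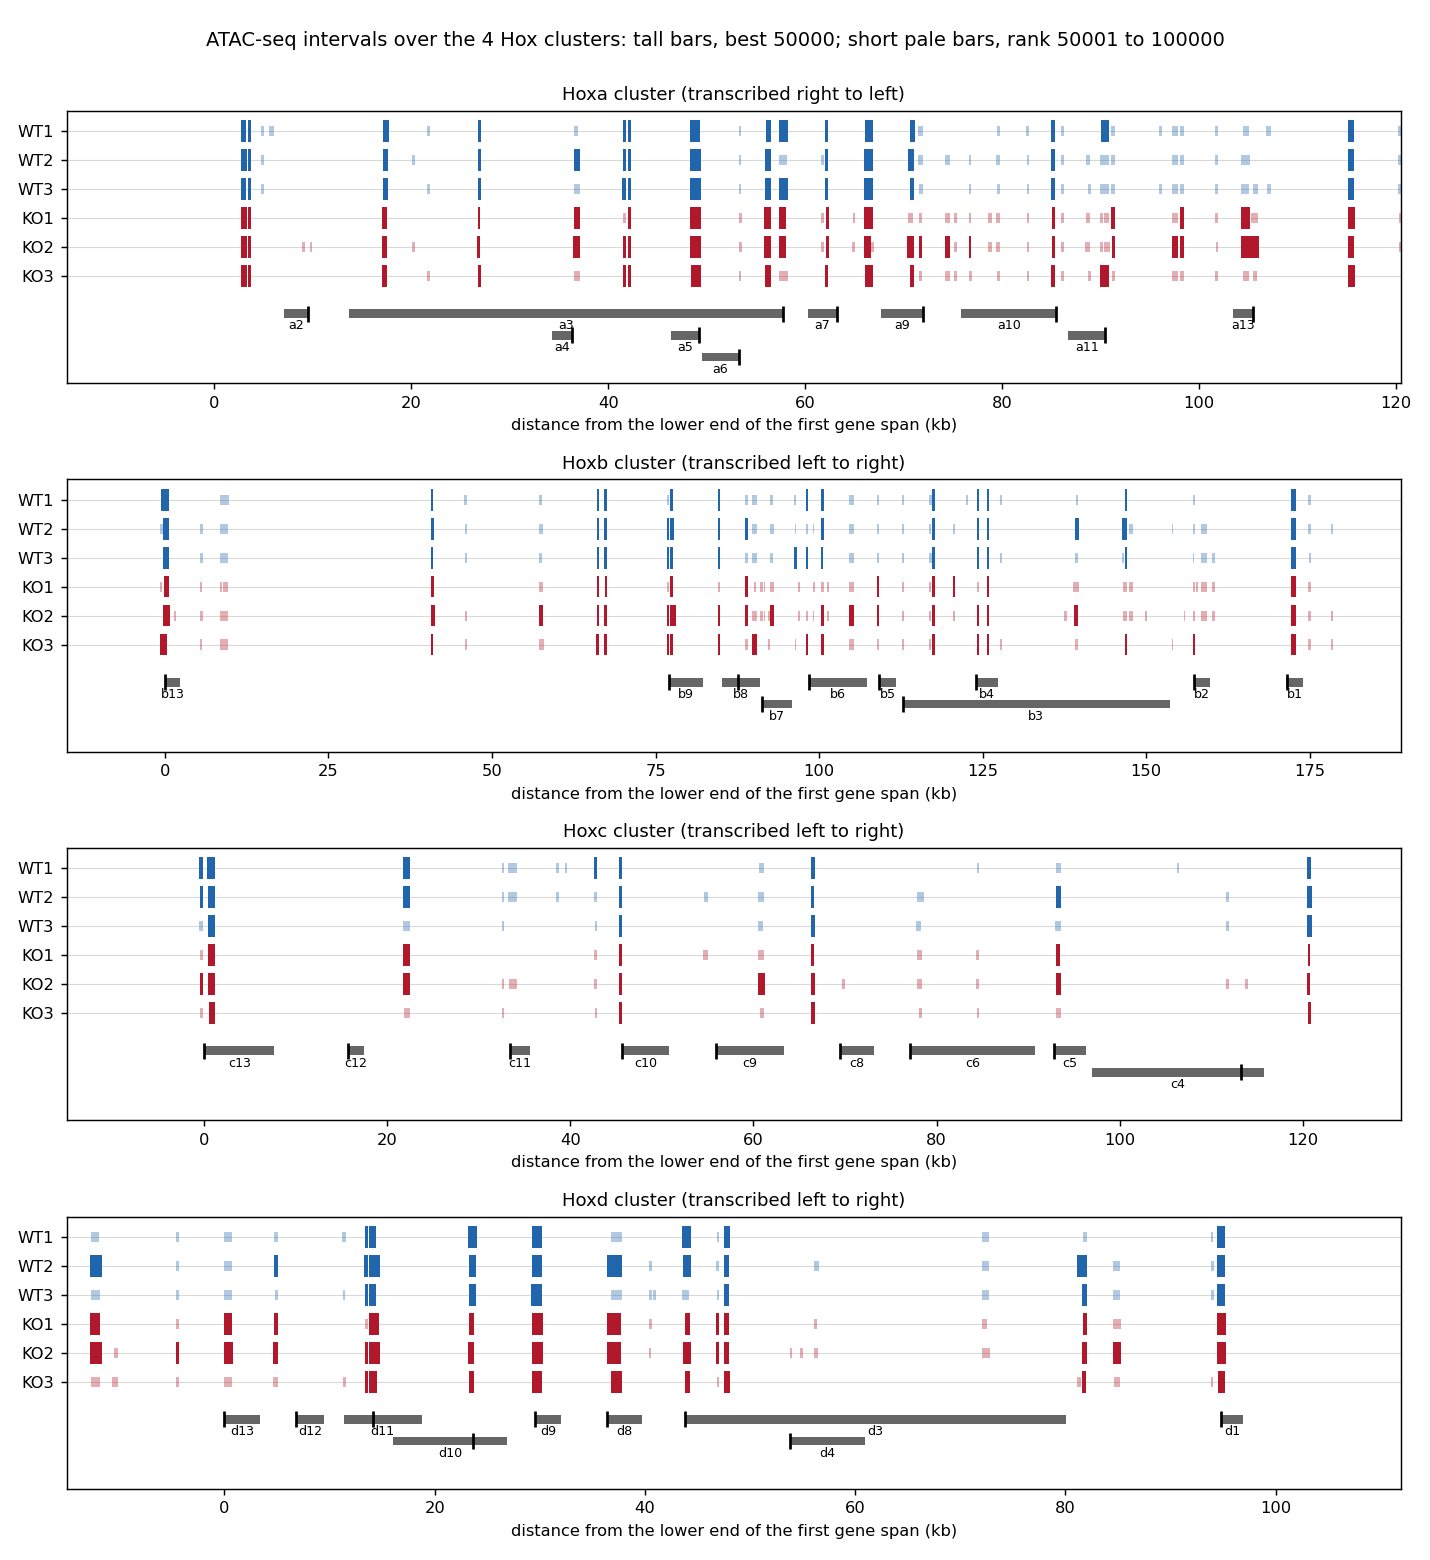
Map of the 4 Hox clusters, with distance in kb along each cluster on the horizontal axis and the 6 libraries as rows (WT blue, KO red). Tall bars are open intervals (best 50000) and short pale bars ranked intervals beyond those, down to rank 100000; grey bars are spans of the genes reported and black ticks their annotated starts. Hoxa carries open intervals along its length, while Hoxc has few of them, separated by long stretches with pale bars alone or none.

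Stretches of at least 5 kb with no open interval in any library made up 60.4% of the Hoxa span, 75.8% of Hoxb, 78.2% of Hoxd and 94.3% of Hoxc. The longest, 39.8 kb (chr11:96195130-96234955), began inside Hoxb13 and ran into the gap between Hoxb13 and Hoxb9, and next to it a stretch of 15.8 kb (chr11:96235584-96251419) held no gene. In Hoxd a closed stretch of 33.0 kb (chr2:74716333-74749305) covered most of the Hoxd3 span and the whole of Hoxd4, and the next was 9.19 kb (chr2:74753466-74762658). In Hoxc 26.3 kb (chr15:102987857-103014161) held Hoxc8 and Hoxc6 up to the start of Hoxc5, and 22.1 kb (chr15:103014754-103036856) held Hoxc4. The longest of Hoxa, 13.4 kb (chr6:52159049-52172413), covered Hoxa2 and reached into Hoxa3, and the next, 9.36 kb (chr6:52182470-52191827), reached the start of Hoxa4. These stretches were not empty of weaker peaks: the 39.8 kb stretch held 4 to 6 listed intervals per library and the 33.0 kb stretch 3 to 10. Around Hoxd10, by contrast, the stretches of 8.4 kb and 5.21 kb on either side of its open start held no listed interval of any strength in any library.

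Merging the open intervals of all libraries gave 96 regions in the widened clusters, 42 of them open in all 6 libraries (43.8%, against 50.8% of 67594 regions of the genome). Inside the cluster spans 26 of 66 were open in all (39.4%), and in the flanks 16 of 30 (53.3%). Of the 66 regions inside the spans, 25 lay within 500 bp of an annotated Hox start, so most open regions of the clusters lay between starts or inside genes.

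Hoxc13, a regulator of hair and nail keratins, had the best mean rank of any Hox start over the 6 libraries. Its interval, chr15:102921496-102922291 inside the gene, had ranks 7021, 5444 and 8507 in WT and 6534, 5522 and 5338 in KO. The authors' fold over background there was 19.4 to 28.0. The ranks of the genotypes overlap (log2 rank gain 0.25 ± 0.33 SE, limma, adjusted p = 0.65), and this strong peak stands at the edge of the least open cluster. A weaker region, chr15:102920610-102921037, lies 94 bp upstream of the Hoxc13 start. It ranked 46593, 43797 and 53719 in WT and 72228, 39452 and 66330 in KO.

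Hoxb13, which is used in hindgut and prostate epithelium, was open in every library, with ranks 24389, 17215 and 20260 in WT and 16901, 10835 and 20346 in KO. The genotypes overlap, since KO replicate 3 ranked just behind WT replicate 3. Hoxa13 and Hoxd13, the members of group 13 needed for the urogenital tract, were weaker. Hoxa13 ranked 80088, 58554 and 75306 in WT and 33726, 40969 and 71158 in KO, and Hoxd13 ranked 86250, 56502 and 69766 in WT and 43263, 41331 and 62614 in KO. At both genes KO replicates 1 and 2 were open and the other 4 libraries were not, and KO replicate 3 fell within the WT range (gains 0.61 ± 0.30 and 0.53 ± 0.26 SE, limma, adjusted p = 0.272 and 0.278).

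The posterior genes of group 10 were open in every library in all 3 clusters that have one. Hoxd10 came next to Hoxc13: the region chr2:74691409-74692206 covers its start and ranked 10058, 5955 and 9614 in WT and 5667, 4995 and 7254 in KO, ahead of Hoxc13 in KO replicates 1 and 2. The authors' fold there was 19.7 to 36.0. The ends of its annotated span, which reach other transcripts, had no interval among the best 100000, so Hoxd10 is the gene whose reading depends most on where its start is placed. Hoxa10, the best of Hoxa, ranked 16023, 18976 and 17851 in WT and 17256, 15216 and 20364 in KO (gain 0.01 ± 0.29 SE). Hoxc10 ranked 24254, 31094 and 44478 in WT and 25673, 22342 and 34013 in KO. All 3 show no separation of the genotypes.

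Group 9 was mixed. Hoxd9 ranked 29480, 30923 and 32728 in WT and 40810, 27968 and 31604 in KO. Hoxb9 was open in all libraries and is described with the genotype comparison. The start of Hoxa9 was open in KO replicate 2 alone, and that of Hoxc9 had no interval among the best 100000. Inside Hoxa9, 843 bp from its start, a region ranked 28296, 36356 and 33252 in WT and 53412, 45734 and 33182 in KO. Inside Hoxc9, 4645 bp from its start, a region ranked 95069, 77541 and 85487 in WT and 80769, 42585 and 92662 in KO. In group 11 Hoxd11 was open in all libraries at its inner start, while Hoxa11, used in kidney and uterus, ranked 49350, 58211 and 56792 in WT and 51897, 52064 and 46521 in KO. Those Hoxa11 values straddle the limit of 50000, which 1 WT and 1 KO library passed. The start of Hoxc11 held ranks of 83080 or poorer, and the starts of Hoxc12 and Hoxd12, the whole of group 12, had no interval among the best 100000.

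Among the anterior and central genes (groups 1 to 8) only 2 of 23 starts were open in all libraries, Hoxd1 and Hoxa5. In groups 9 to 13 it was 8 of 16 (a division chosen after the values were seen). These counts depend on the window of 500 bp. Regions open in all 6 libraries lay 600 bp from the Hoxb1 start and 832 bp from the Hoxa7 start. Hoxd1 was the best gene end of Hoxd, with ranks 12809, 12011 and 19102 in WT and 12347, 9251 and 16655 in KO. Hoxa5, which patterns the lung and gut, ranked 29665, 34489 and 33134 in WT and 35711, 35995 and 31392 in KO; the same interval touches the far end of Hoxa6, whose own start ranked 63561 or poorer. No start of groups 2, 3, 4, 6, 7 and 8 was open in all 6.

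Starts with intermediate ranks made up much of the rest. Hoxa3, Hoxa4, Hoxb4, Hoxb5, Hoxb6, Hoxc5, Hoxd3 and Hoxd8 were each open in 2 to 5 libraries, and Hoxb2 in KO replicate 3 alone. Hoxb3 ranked between 69576 and 85611 in every library. Hoxa2, Hoxc4, Hoxc8 and Hoxd4 had a start interval among the best 100000 in KO replicate 2 alone, and Hoxb7 in KO replicates 1 and 2. The starts of 7 genes, Hoxa7, Hoxb1, Hoxb8, Hoxc6, Hoxc9, Hoxc12 and Hoxd12, had none within 500 bp in any library. That does not make the genes closed. A region inside Hoxb1, 600 bp from its start, was open in all 6 libraries (ranks 13679 to 21732). So was a region inside Hoxa7, 832 bp from its start (ranks 16287 to 41132). In the whole lists 28 of 39 starts had an interval in all 6 libraries, and Hoxa7, Hoxb1, Hoxb8 and Hoxc6 had none in any.

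**Figure D2:**
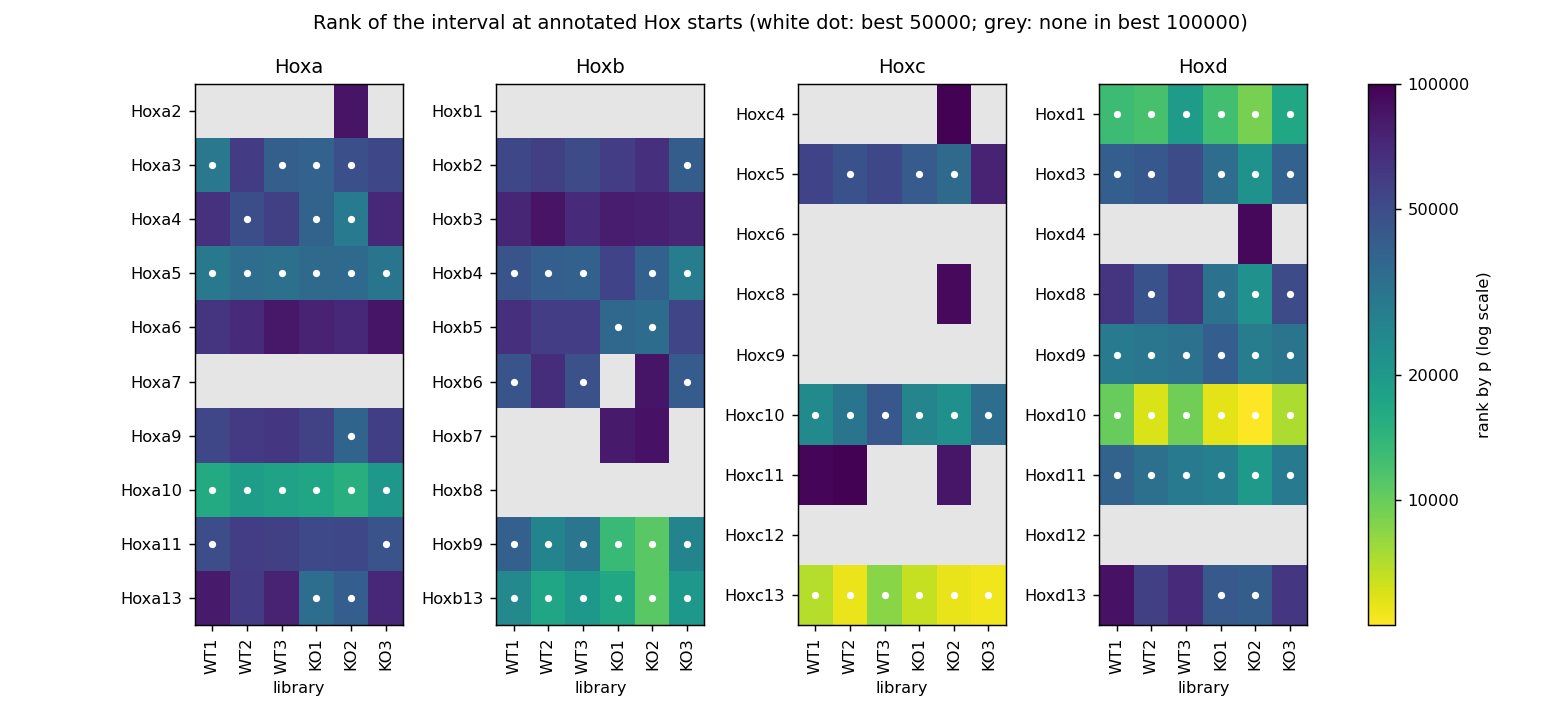
Rank of the best interval within 500 bp of annotated Hox starts (rows, by cluster, for the genes reported) in each library (columns), on a log colour scale from yellow (best) to dark purple, with grey for no interval among the best 100000 and a white dot for the best 50000. Hoxc13 and Hoxd10 are the brightest rows, and the starts of Hoxa7, Hoxb1, Hoxb8, Hoxc6, Hoxc9, Hoxc12 and Hoxd12 are grey throughout.

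How open the Hox genes appear relative to others depended on where the lists were cut. For a comparison with all genes both ends of every gene span were used, since the promoter entries covered 79.87% of protein-coding genes, and the better end was kept. Among the best 50000 intervals 9 of 39 Hox genes (23.1%) had an open end in all 6 libraries, against 9859 of 21887 genes (45.0%). Among the best 25000 it was 4 (10.3%) against 31.4%, among the best 100000 it was 23 (59.0%) against 55.7%, and in the whole lists 27 (69.2%) against 61.0%. With annotated starts in place of ends 10 of 39 Hox genes (25.6%) were open in all 6 libraries, against 8426 of the 17509 genes for which a start was at hand (48.1%); for 17 of the Hox genes that start was taken from the span. Hox ends were thus listed about as often as those of other genes, but fewer of them were among the strongest peaks.

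**Figure D3:**
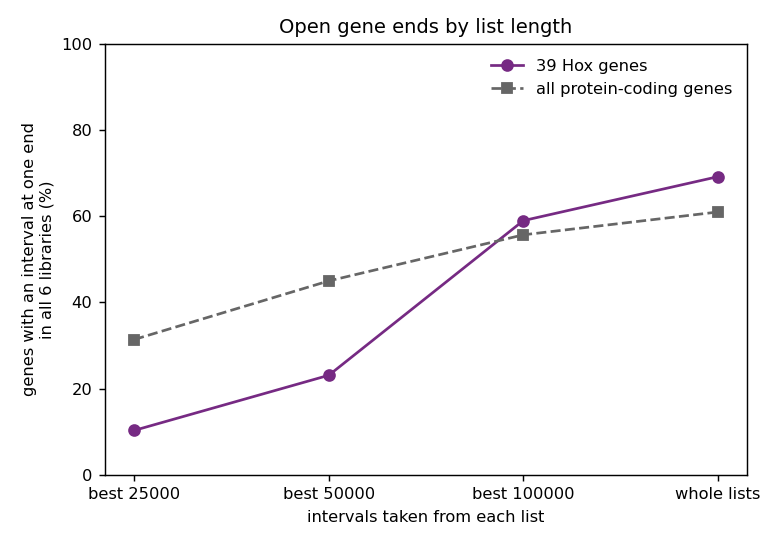
Share of genes (%) with an interval at a gene end in all 6 libraries, by how many intervals are taken from each list, for the 39 Hox genes (purple circles) and all protein-coding genes (grey squares). The Hox line starts below the grey line, at 10.3% against 31.4%, and ends above it, at 69.2% against 61.0%.

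Several of the best open regions lay away from Hox starts. In Hoxa the best were chr6:52305803-52306487, in the flank beyond Hoxa13 and 44923 bp from its start, and chr6:52182078-52182469, inside the Hoxa3 span. The flank region ranked 14367, 9135 and 14904 in WT and 9380, 10550 and 19198 in KO, with the genotypes overlapping. In Hoxb chr11:96311590-96312071, inside the Hoxb3 span, ranked 15376, 14392 and 14852 in WT and 12551, 11686 and 16178 in KO. The other Hoxb region, chr11:96399918-96400350 in the flank beyond Hoxb1, ranked 21396, 12877 and 16378 in WT and 11832, 12634 and 14034 in KO. Both Hoxb regions also overlap between genotypes. In Hoxc chr15:103041589-103042132, just outside the anterior edge and 7194 bp from the Hoxc4 start, ranked 13049, 7907 and 7170 in WT and 15598, 20865 and 6647 in KO. There KO replicates 1 and 2 were the poorest and KO replicate 3 the best. In Hoxd the best was the start of Lnpk, a neighbour that encodes an endoplasmic reticulum protein (chr2:74578221-74579296), with ranks 3172, 2231 and 3209 in WT and 1301, 752 and 3178 in KO.

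Clusters carry miRNA genes as well, and their mature sequences are shown because members of different clusters share a seed (bases 2 to 8, in capitals).
mmu-miR-10a-5p: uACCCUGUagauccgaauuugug
mmu-miR-10b-5p: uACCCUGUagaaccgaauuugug
mmu-miR-196a-5p: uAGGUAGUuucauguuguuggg
mmu-miR-196b-5p: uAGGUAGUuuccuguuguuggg
mmu-miR-615-5p: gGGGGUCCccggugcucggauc
The miR-10 pair, from Hoxb and Hoxd, has the seed ACCCUGU, and the miR-196 genes, from Hoxa, Hoxb and Hoxc, have AGGUAGU; miR-196 is known to target Hoxb8. None of the 6 hairpins was overlapped by an interval of the best 100000 in any library. The hairpin of miR-196b was 31 to 59 bp from such an interval in WT replicate 2 and in all 3 KO libraries, and 1818 and 2780 bp from one in the other WT libraries. Those nearby intervals were weak except in KO replicate 2, where the rank was 49184. That of miR-10b lay in the closed stretch around Hoxd4.

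Between genotypes, the length of open chromatin in each cluster overlapped. In Hoxa the open intervals covered 7763, 6949 and 6900 bp in WT and 8521, 11338 and 6794 bp in KO, a mean difference of 1680 bp (exact permutation test, two-sided, p = 0.4, adjusted over 4 clusters 0.8). In Hoxd they covered 4937, 7955 and 4376 bp in WT and 7467, 8869 and 5726 bp in KO, a difference of 1600 bp (exact permutation p = 0.3, adjusted 0.8). Hoxb had 5509, 7012 and 5796 bp in WT and 5281, 9357 and 6155 bp in KO, a difference of 825 bp (exact permutation p = 0.7, adjusted 0.933). Hoxc had 2536, 2710 and 1395 bp in WT and 2459, 3373 and 1360 bp in KO, a difference of 184 bp (exact permutation p = 1.0, adjusted 1.0). KO replicate 2 had the largest value in all 4 clusters. With 3 libraries a group the test cannot go below 0.1. The differences depended on single libraries: without KO replicate 2 those of Hoxa, Hoxb, Hoxc and Hoxd were 454, −388, −304 and 840 bp, and without KO replicate 3 they were 2730, 1210, 702 and 2410 bp. The Hoxc difference was −226 bp without WT replicate 3 and 432 bp without WT replicate 2, and that of Hoxd was 2700 bp without WT replicate 2 and 908 bp without WT replicate 3.

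**Figure D4:**
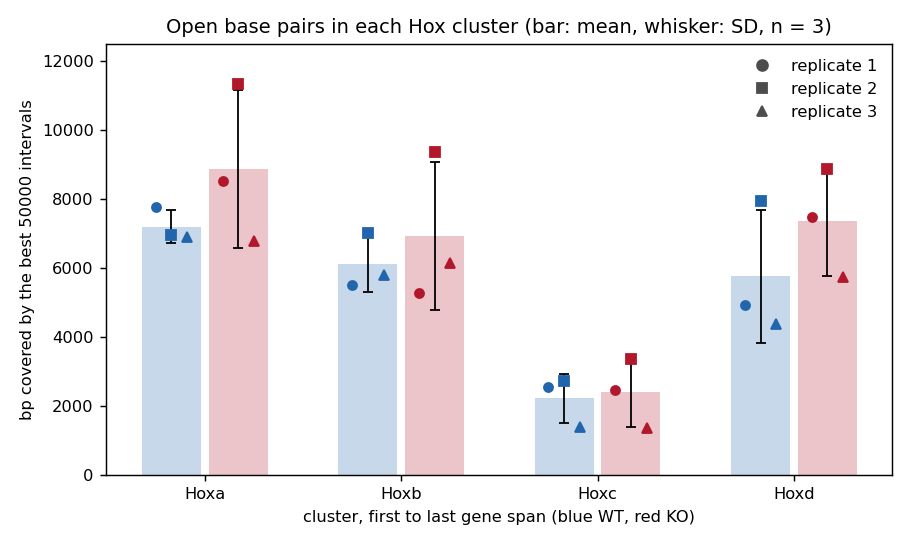
Base pairs of each cluster covered by open intervals, by genotype (blue WT, red KO); bars are means, whiskers SD and symbols the 3 libraries of each group. KO replicate 2 (red squares) has the largest value in every cluster, up to 11338 bp in Hoxa, and the other KO libraries lie near or among the WT libraries.

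No single Hox region or gene end passed the test. Of the 68 regions tested (open in at least 3 libraries) 0 were called at an adjusted p of 0.05 by limma (lowest adjusted p 0.219), where 0.0626% of 51121 regions of the genome were called higher in KO and 0.0489% lower. At an unadjusted p of 0.05, 5 Hox regions were higher and 2 lower, against 9.37% and 10.9% of all regions. In 4 regions every KO library ranked better than every WT library and in 2 the reverse held, against 9.78% and 8.73% of all. These counts are near or below the background. The median gain of the 68 was 0.13, with 45 above 0 and 23 below, and that of all regions 0.01. With single libraries left out the Hox median ran from 0.04 (without KO replicate 2) to 0.25 (without KO replicate 3). By cluster, with spans and flanks together, the medians were 0.01 in Hoxa (19 regions), 0.17 in Hoxb (26), −0.21 in Hoxc (10) and 0.48 in Hoxd (13). Spans and flanks differed in Hoxc and Hoxd. The median was 0.082 in the Hoxc span (5 regions) and −0.33 in its flanks (5). It was 0.23 in the Hoxd span (10) and 0.87 in its flanks (3).

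**Figure D5:**
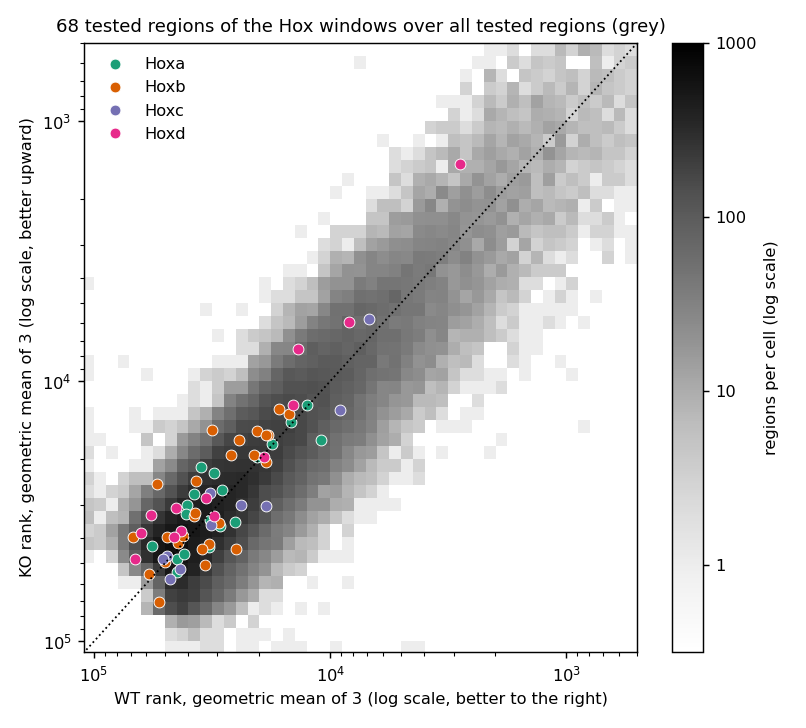
Geometric mean rank in WT (horizontal, log scale, better to the right) and in KO (vertical, log scale, better upward) for the 68 tested regions of the widened Hox clusters, coloured by cluster, over the density of all 51121 tested regions in grey. The dotted line marks equal ranks, and the Hox regions lie inside the grey cloud on both sides of it.

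Of the gene ends, 28 passed the filter of an interval among the best 100000 in at least 3 libraries, and 0 were called by limma (lowest adjusted p 0.257), against 0.0448% of 13395 ends higher and 0.0747% lower. At an unadjusted p of 0.05, 3 were higher (Hoxb9, Hoxd8 and Hoxb5) and 1 lower (Hoxb8), against 14.1% and 4.67% of all ends. At 3 ends (Hoxb9, Hoxb5 and Hoxd3) every KO library ranked better than every WT library, against 11.3% of all ends. The reverse held at 4.36% of all ends. The median gain was 0.08 in the Hox ends and 0.32 in all ends, so the median Hox end lay below that of gene ends at large. With single libraries left out the Hox median ran from 0.04 (without KO replicate 2) to 0.20 (without WT replicate 1). The medians of all ends in these fits were 0.17 and 0.33. At annotated starts the median was 0.21 in Hox genes and 0.34 in all genes.

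Hoxb9, which patterns the thorax, had the largest gain among the tested Hox ends. The stronger of its regions, chr11:96271461-96272508, ranked 39705, 25966 and 30823 in WT and 13248, 10718 and 25937 in KO, so every KO library was ahead, although KO replicate 3 and WT replicate 2 were nearly level. That region begins 131 bp inside the gene. A second region, chr11:96271005-96271336, covers the start itself and ranked 61467, 43050 and 47725 in WT and 61560, 46449 and 42773 in KO, with the genotypes overlapping (gain 0.02 ± 0.25 SE, limma, adjusted p = 0.976). The gain of the stronger region was 1.04 ± 0.34 SE (limma, adjusted p = 0.219), and the authors' fold there was 8.26 to 15.5 in WT and 13.1 to 22.4 in KO. A closed stretch of 6.31 kb separates it from the region upstream of Hoxb8, whose gain had the opposite sign.

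At Hoxb8 the region chr11:96278820-96279104, upstream of the gene span, ranked 22499, 31361 and 22546 in WT and 58952, 47514 and 30873 in KO. KO replicate 3 ranked just ahead of WT replicate 2 and the other KO libraries behind all WT ones (gain −0.81 ± 0.29 SE, limma, adjusted p = 0.219). The annotated Hoxb8 start lies 2801 bp away and had no interval of its own. A region inside the gene, chr11:96283000-96283474 and 1095 bp from that start, had a gain of the opposite sign: it ranked 85969, 49869 and 73663 in WT and 28945, 31373 and 69506 in KO (gain 0.77 ± 0.36 SE, limma, adjusted p = 0.252). Hoxb7 and Hoxb6 had negative gains at the ends used, which for Hoxb7 is the far (3′) end. There Hoxb7 ranked 53541, 93481 and 47402 in WT and 77974 in KO replicate 3, with none among the best 100000 in KO replicates 1 and 2 (gain −0.57 ± 0.27 SE, adjusted p = 0.271). At its start the only ranked intervals were those of KO replicates 1 and 2, at 80823 and 86366. Hoxb6 ranked 46119, 67961 and 47367 in WT and 84120 and 41999 in KO replicates 2 and 3, with none in KO replicate 1 (gain −0.42 ± 0.32 SE, adjusted p = 0.423). At the ends used, KO replicate 3 was the best KO library for both genes.

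Hoxb5 ranked 66291, 57726 and 58127 in WT and 36917, 34911 and 53613 in KO, with every KO library ahead (gain 0.56 ± 0.26 SE, adjusted p = 0.265). Hoxd8 (chr2:74704593-74706072) ranked 63594, 47042 and 64006 in WT and 32313, 21984 and 49630 in KO (gain 0.81 ± 0.31 SE, limma, adjusted p = 0.222). KO replicate 3 there fell behind WT replicate 2. Gains of both signs thus occurred within the Hoxb cluster, none of them called by the main fit of all 6 libraries. A fit with a replicate block, described at the end, called the ends of Hoxb9, Hoxd8 and Hoxb8. That is 7.14% of Hox ends higher and 3.57% lower, where 10.4% and 3.35% of all ends were called.

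The region with the smallest p of all 68 lay in the Hoxb flank, 69970 bp beyond the Hoxb1 start. It is chr11:96435728-96436069, in no annotated gene, and ranked 70041, 37881 and 58886 in WT and 18556, 25891 and 31526 in KO (gain 1.12 ± 0.30 SE, limma, adjusted p = 0.219). All KO libraries were ahead of all WT libraries. In the Hoxc flank chr15:103128436-103128796 ranked 15722, 26702 and 15788 in WT and 37160, 31014 and 24093 in KO (gain −0.69 ± 0.29 SE, limma, adjusted p = 0.235). In the Hoxa3 span chr6:52182078-52182469 ranked 14283, 7874 and 11536 in WT and 21091, 15434 and 14802 in KO, every WT library ahead, with the smallest gap between 14283 and 14802 (gain −0.63 ± 0.31 SE, limma, adjusted p = 0.27).

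Without KO replicate 3 the same limma fit called 13 of 66 Hox regions, 9 higher in KO (13.6%) and 4 lower (6.06%), where 12.9% and 16.0% of all 48121 regions were called. The share higher was thus near that of the genome. The regions of Hoxb9, Hoxd8 and the Hoxb flank were among the 9, with gains of 1.41, 1.11 and 1.30 (adjusted p = 0.00409, 0.0086 and 0.00682), and those at Hoxb8 and in the Hoxc flank were among the 4, with gains of −1.07 and −0.85 (adjusted p = 0.00954 and 0.0423). Of 27 Hox ends, 7 were called higher (Hoxd13, Hoxd8, Hoxd3, Hoxa4, Hoxa13, Hoxb9 and Hoxb5) and 3 lower (Hoxb8, Hoxb7 and Hoxb6), 25.9% and 11.1%, against 34.4% and 7.0% of 13281 ends. The median gain was then 0.12 in the Hox ends and 0.50 in all ends. Since the library left out was picked from these same lists, the p-values of this fit are no independent evidence of a difference. What sets KO replicate 3 apart was not tested.

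Genes that act on or with the Hox clusters gave no call either. Their counts stand beside those of all genes: 45.0% had an end open in all libraries, 9658 of 13395 tested ends had gains above 0, the median gain was 0.32 and 14.1% were higher at an unadjusted p of 0.05. Of 9 genes of the PBX, MEIS and PREP families, which bind DNA together with HOX proteins, 7 had an end open in all libraries. Pknox1 had the smallest p among them, with ranks 7216, 2956 and 8247 in WT and 1460, 1631 and 3028 in KO (gain 1.54 ± 0.47 SE, limma, adjusted p = 0.257). WT replicate 2 and KO replicate 3 were nearly level there, and the median gain of the 7 tested was 0.53. Of 22 Polycomb subunit genes 15 were open in all libraries, and the 21 tested had a median gain of 0.51, with 0 called and 4 higher at an unadjusted p of 0.05. Bmi1, a subunit of the complex that ubiquitylates histones, ranked 96812, 97183 and 94371 in WT and 57152, 41777 and 81392 in KO (gain 0.73 ± 0.26 SE, limma, adjusted p = 0.257). Ezh1, a histone methyltransferase, ranked 16527, 14312 and 14364 in WT and 5934, 6397 and 12450 in KO (gain 0.95 ± 0.36 SE, limma, adjusted p = 0.257). At both genes every KO library was ahead, as it was at 11.3% of all ends.

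Trithorax and MLL genes were similar: 8 of 15 were open in all libraries and the 11 tested had a median gain of 0.37, with 0 called. Kmt2d, a histone methyltransferase often mutated in bladder cancer, ranked 7475, 3716 and 7044 in WT and 2494, 1344 and 4460 in KO (gain 1.24 ± 0.47 SE, limma, adjusted p = 0.257). Men1, which encodes menin of the MLL complexes, had a gain of the opposite sign, with ranks 1713, 3900 and 1919 in WT and 7930, 5953 and 2899 in KO (gain −1.14 ± 0.47 SE, limma, adjusted p = 0.257). Of 13 upstream regulators of Hox genes (CDX factors, retinoic acid receptors and enzymes that degrade retinoic acid) 2 were open in all libraries, and Cdx1 and Cdx4 had no interval among the best 100000. Of 16 other homeobox genes of clustered or related families 4 were open in all libraries and 10 were tested, all 10 with gains above 0 but a median of 0.26, below that of all ends, and 0 called. Of the 24 nearest protein-coding neighbours of the clusters 16 were open in all libraries, against 9 of the 39 Hox genes. The 21 tested neighbours had a median gain of 0.17, with 12 above 0 and 9 below. Atp5g1, a subunit gene of ATP synthase on the Hoxb13 side of Hoxb, ranked 46, 913 and 369 in WT and 2021, 2362 and 586 in KO (gain −2.50 ± 0.92 SE, limma, adjusted p = 0.257), with KO replicate 3 inside the WT range. The urothelial marker genes had a median gain of 0.48 over 14 tested, and the fibroblast genes one of −0.21 over 6; their part in the Hox values was not tested.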

How the data were processed

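Peak lists of 6 libraries (3 Stag2-WT, 3 Stag2-KO) were used on mm10, the build named in the submitters' processing notes, which also name DiffBind. The sources used here name no aligner or peak caller. For each peak the deposited lists give a display score (not used), a ratio (fold over background), a −log10 p and a −log10 q, as the authors' caller wrote them; read counts are not part of these lists. Repeated intervals of a list were collapsed to 1 with the best p, and lists were ordered by p and limited to the best 50000 (open) and best 100000 (ranked, missing set to 100001). Open intervals that overlap were merged to regions. Regions with an open interval, or gene ends (500 bp either side) with a ranked one, in at least 3 libraries were tested genome-wide with limma 3.58.1 in R 4.3.3 (variance trend, Benjamini-Hochberg at 0.05) on minus log2 rank. Cluster coverage was tested by exact permutation. The planned use of 1 start per gene needed promoter entries for 80% of genes; 79.87% had one, so both span ends were used and the better kept. Annotated starts, added after seeing the data, came from RefSeq entries or, for 17 Hox genes, the 5′ span end by cluster strand. Alternatives were list length, ranking by fold, the q-value limit, linear rank, overlap, window, filter, single libraries left out and a replicate block. The fit was tested on simulated data. Named items were, by rule, the best and poorest gene end, 2 best regions and 2 longest closed stretches per cluster, group 13, the 3 smallest p per direction, and 1 or 2 genes of each other list. The poorest ends by that rule were Hoxa7, Hoxb1, Hoxc4 and Hoxd10. The members and lists were chosen with earlier results of these data known. Values of 1 Hox gene and 1 immune marker are not reported here, although the counts include them.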

Additional observations from a re-analysis of the deposited data

How the results depend on the processing

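The counts of Hox regions and gene ends called were 0 in each alternative except 2. Without KO replicate 3 they were 13 and 10, and leaving out single libraries gave 0 to 13 regions and 0 to 10 ends; the cause was not tested. With a replicate block the counts were 2 regions (both higher in KO) and 3 ends (2 higher, 1 lower). In the genome 1411 and 2299 regions and 1387 and 449 ends were called, against 32 and 25, and 6 and 10, without it. Of the Hox regions 2.94% were called higher and 0.0% lower, against 2.76% and 4.5% of all 51121. Of the Hox ends it was 7.14% and 3.57%, against 10.4% and 3.35% of all 13395. These shares were near or below those of the genome. The Hox regions called were at Hoxb9 and in the Hoxb flank (limma, adjusted p of 0.0466 and 0.0365), and the ends were Hoxb9, Hoxd8 and Hoxb8. Deviations of regions from the group means correlated by −0.264, 0.504 and 0.56 between libraries of the same number. Between unlike numbers the correlation ran from −0.658 (WT replicate 2 with KO replicate 3) to 0.532 (WT replicate 2 with KO replicate 1). With 3 libraries a group these values cannot settle whether the numbers pair the libraries. The block cannot change the mean differences in covered length, since each number occurs once in each group. Open Hox ends numbered 4 among the best 25000 intervals, 23 among the best 100000, 27 in whole lists and 9 to 11 with single libraries left out. With a window of 1000 bp they numbered 12 (30.8%, against 48.5% of all genes). In covered length the Hoxc difference was −40.7 bp with the best 25000 intervals and −636 bp with the best 100000, and that of Hoxd −358 bp with the best 100000. With single libraries left out it ran from 454 to 2730 bp in Hoxa, −388 to 1650 bp in Hoxb, −304 to 702 bp in Hoxc (−226 bp without WT replicate 3) and 840 to 2700 bp in Hoxd. Of 165 gains recomputed for named regions and ends, 147 kept sign and side, 16 passed the threshold and 2 changed sign: Hoxb6 with the rank list of 50000 (0.02) and Hoxb7 with a window of 1000 bp (0.09). Ranks carry no absolute scale, so a uniform change in accessibility would not be seen, and the read depth behind weak peaks is unknown.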
